A study of Tachycineta bicolor with 14 samples.

Results

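In 2 of 7 brains of tree swallow embryos from mothers breeding at high density, a set of 80 genes stood at 4 times or more the mean of the other 12 brains studied. These genes were chosen by that difference, from a table of 13375 genes. Levels are given in CPM, the gene's estimated count over the embryo's total, times 1000000. A gene was a member when its mean over all 14 embryos was 1 CPM or more, which 11495 genes reached, and when its CPM in high-density embryo 2 and in high-density embryo 4 (codes BA21 and SW22) was each at least 4 times the mean CPM of the other 12. The height of embryos 2 and 4 is therefore a description with no test, and the results below concern the other 12 embryos, which entered the rule only through their mean.

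The tree swallow (Tachycineta bicolor) is a songbird that nests in cavities, and its females breed at densities that vary in nature. Whole brains were taken at embryonic day 11, and polyA RNA was sequenced, with 1 library for each of 7 embryos of high-density and 7 of low-density mothers. The labels list density as the treatment and name no agent or further manipulation, and they give neither sex nor nest. Embryos are numbered within a density in accession order. High-density embryos 1 to 7 have the codes GP16, BA21, GP4, SW22, GP12, SW42 and BA18, and low-density embryo 1 is CC22.

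A whole brain late in incubation holds neurons, glia, dividing progenitors, vessels, blood and the lining of the ventricles, and a library sums the polyA RNA of all of them. Mothers of many birds pass steroid hormones to the yolk in amounts that vary with their social surroundings, and the series' title sets embryonic brain expression beside yolk testosterone. In bulk samples such as these, more cells of a type and more RNA per cell cannot be told apart. The members carry identifiers only, as 0 of the 80 have a gene name in the deposited table, so neither their functions nor cell type markers could be looked up and no sequence is shown.

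Totals ran from 3950422 to 6812901 estimated counts per library. High-density embryos 4, 3 and 2 had the 3 largest totals, 6812901, 6745008 and 6680344, and high-density embryo 7 had 4201024. Embryo 7 also had the fewest genes with a count, 11308, against 11881 to 12529 in the others, and its median over all 11495 genes lay 0.52 log2 units below the low-density mean, a shift that was -0.10 on TMM-scaled CPM. High-density embryos 3 and 5 lay 0.16 and 0.14 log2 units above the low-density mean by the same median, and both at -0.03 on TMM-scaled CPM. The part of depth, scaling or RNA quality in the results below was not tested.

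The rule divides by the mean of the other 12 embryos, 7 of them at low density, so it favoured genes with a low level there. Some members averaged under 1 CPM over those 12, down to 0.521 CPM. They reached the minimum mean only through the embryos that the rule chose. The low-density levels below, and their distance from all genes, are therefore a description with no test. In low-density brains most members were expressed at a few CPM. Their low-density mean had a median of 1.88 CPM, with quartiles of 1.14 and 7.30 and a range from 0.0723 to 77.7 CPM. Over all 11495 genes the same mean had a median of 24.5 CPM (CPM is not divided by transcript length, so these values do not rank genes by transcript number). By low-density mean, 15 members lay under 1 CPM, 42 from 1 to under 5, 17 from 5 to under 20 and 6 at 20 CPM or more. None was at 0 in all 7 low-density embryos, and 18 were at 0 in at least 1 of them, where a count of 0 allows 0.494 to 0.759 CPM (3 counts of the total, counting error only).

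The levels in high-density embryos 2 and 4 are those the rule used, and both had to pass the same threshold. The median member level was 24.9 CPM in embryo 2 and 22.5 in embryo 4. Summed, the members took 0.586% of counts in embryo 2 and 0.558% in embryo 4, against 0.0511 ± 0.0155% at low density (SD, n = 7). The mean of the pair was a median of 10.1 times the low-density mean, with quartiles of 8.02 and 13.4 and a range from 3.70 to 116.2. The ratio of embryo 2 to embryo 4 had a median of 1.05 and quartiles of 0.773 and 1.27. It was within 2-fold for 68 members, as for 82.1% of all genes with a count in embryo 4. Of the others, 5 were at least 2-fold higher in embryo 2 and 7 in embryo 4, with ratios up to 7.44 and down to 0.204. Members of low and high base had similar ratios to the low-density mean, with medians of 11.6 times under 1 CPM, 10.1 times from 1 to 5, 8.97 times from 5 to 20 and 10.6 times at 20 CPM or more.

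The threshold passed through a continuous range. The lower of the folds in embryos 2 and 4 was 4.02 and 4.01 for the last 2 members inside it, and 3.99 and 3.99 for the first 2 genes outside. The last member inside stood at 8.08 and 6.90 CPM in embryos 2 and 4 and at 1.72 in the mean of the other 12. The first gene outside stood at 6.44, 6.31 and 1.58 CPM. In 78 of the 80 members embryos 2 and 4 were the highest of all 14, which the rule favours, and in 3 both folds were 10 or more.

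**Figure D1:**
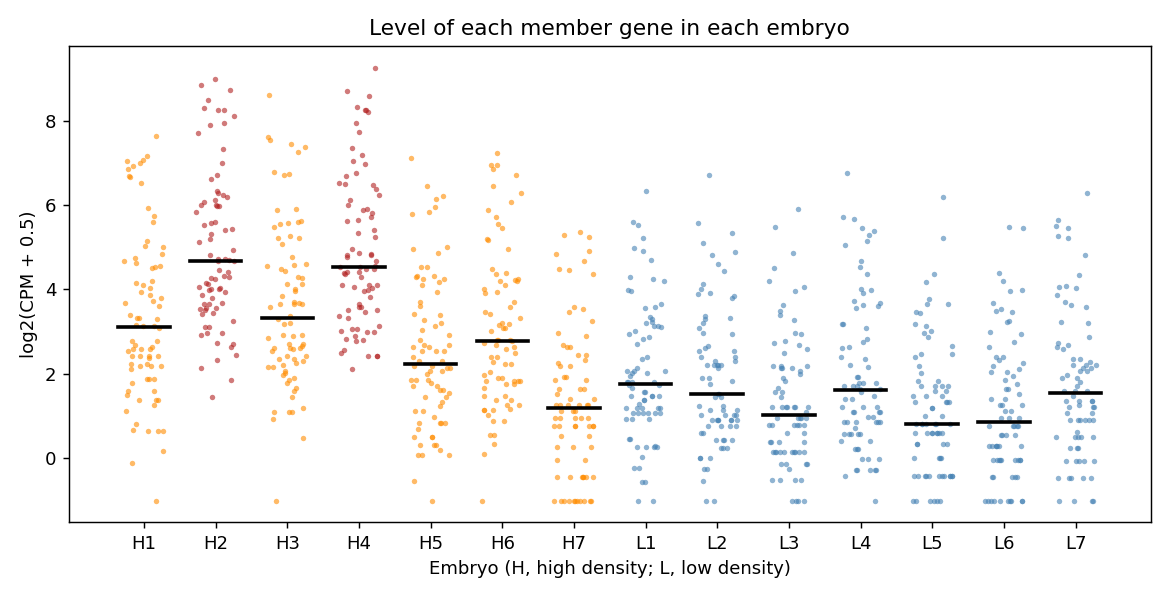
Level of each of the 80 members, as log2(CPM + 0.5), in each of 14 embryos (H, high density; L, low density), 1 point per gene and a black bar at the median. H2 and H4 (red) stand highest because the rule chose them; of the other high-density embryos (orange), H3, H1 and H6 lie above all low-density embryos (blue) by their medians of 9.56, 8.15 and 6.41 CPM, and H7 lies among them at 1.78 CPM.

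The rise was not restricted to embryos 2 and 4. The median member level was 9.56 CPM in high-density embryo 3, 8.15 in embryo 1, 6.41 in embryo 6, 4.25 in embryo 5 and 1.78 in embryo 7. In the 7 low-density embryos it ran from 1.27 to 2.92 CPM, with low-density embryo 1 highest. By this measure 4 of the 5 other high-density embryos lay above the whole low-density range and embryo 7 lay within it. The summed level gave the same order, with 0.259, 0.204, 0.159 and 0.105% of counts in high-density embryos 3, 1, 6 and 5, 0.0430% in embryo 7 and 0.0334 to 0.0716% at low density.

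Counted gene by gene, most members were raised in high-density embryos 1, 3 and 6. At least 2 times the low-density mean was reached by 63 of 80 members in embryo 1, where 9.88% of all 11495 genes did so. In embryo 3 it was 77 members (12.1% of all genes), and in embryo 6 it was 58 (6.99%). Embryo 5 had 38 (6.09%). For low-density embryo 1, set against the mean of the other 6 low-density embryos, it was 16 members (4.19%), and for high-density embryo 7 it was 12 (4.13%). Each embryo is a single sample, so these are counts past a fixed fold with no replicate check, and all share the low-density base.

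**Figure D2:**
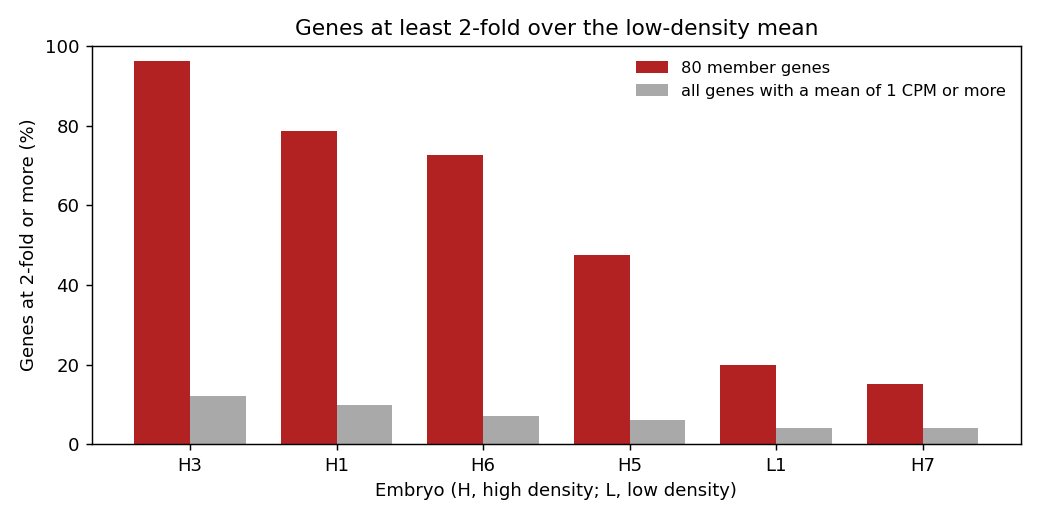
Percentage of genes at 2 times the low-density mean or more in each of 6 embryos, for the 80 members (red) and for all 11495 genes with a mean of 1 CPM or more (grey). Members exceed the grey bar most in H3 (77 of 80, against 12.1%), H1 (63, against 9.88%) and H6 (58, against 6.99%), and least in L1 (16, against 4.19%) and H7 (12, against 4.13%).

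Counted against the range at low density, the order was the same. Embryo 3 lay above every low-density embryo in 75 members (29.2% of all genes), embryo 1 in 65 (19.9%), embryo 6 in 63 (14.8%) and embryo 5 in 39 (22.7%).  Low-density embryo 1 exceeded the other 6 in 23 members (12.6%). In 54 members embryos 1, 3 and 6 all lay above all 7 low-density embryos, against 7.81% of all genes. Among the 12 embryos, embryo 3 held the highest value of 46 members (19.4% of all genes), embryo 1 of 26 (10.1%) and embryo 6 of 6 (3.41%). High-density embryo 7 (9.06%) and low-density embryo 1 (3.21%) held it in 1 member each.

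In high-density embryos 1, 3, 5 and 6 the ratio to base was similar at each level of base, but in embryo 7 it was not. In embryo 1 the median ratio to the low-density mean was 3.63 for members under 1 CPM, 3.37 from 1 to 5, 3.37 from 5 to 20 and 3.83 at 20 CPM or more. In embryo 3 the same classes had 5.31, 4.37, 4.58 and 5.51 times, and in embryo 6 they had 3.06, 2.67, 2.52 and 2.93 times. Low-density embryo 1 had 1.06, 1.57, 1.22 and 1.15 times, and high-density embryo 5 had 1.88, 2.01, 1.86 and 2.13 times. High-density embryo 7 had 2.04 times for members under 1 CPM, and 0.512, 0.574 and 0.834 times in the higher classes. In embryo 7, 3 counts make 0.714 CPM, so its values for members under 1 CPM rest on few counts.

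**Figure D3:**
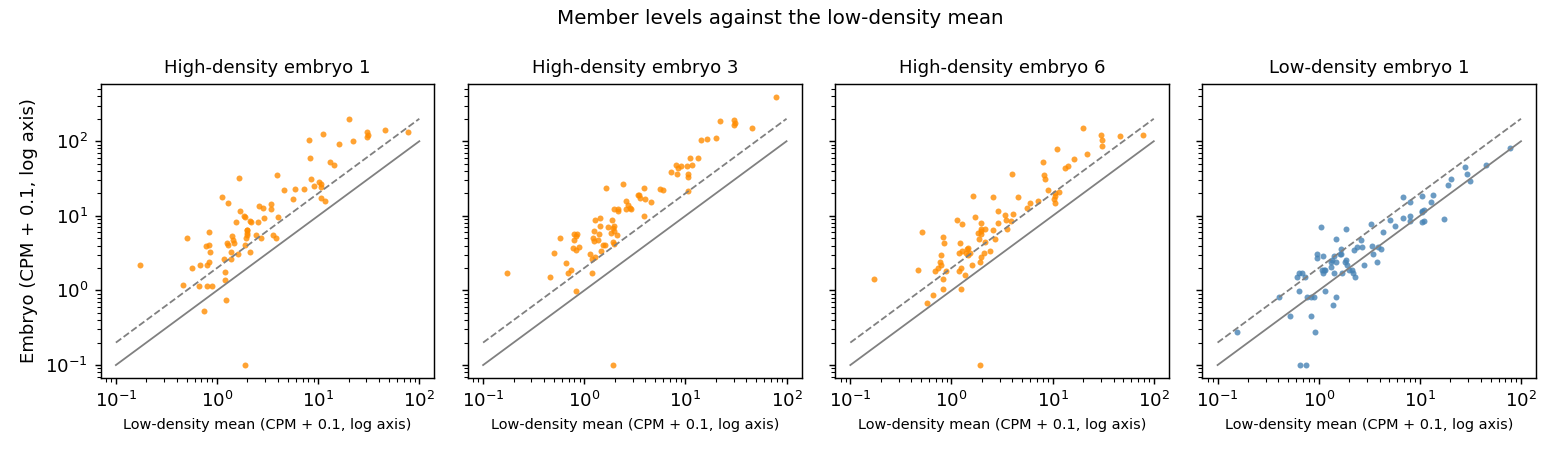
Level of each member in 4 embryos against its low-density mean (both CPM + 0.1, log axes; for low-density embryo 1 the mean of the other 6). The solid line marks equal levels and the dashed line 2 times the base; in high-density embryos 1, 3 and 6 most points lie above the dashed line at every base level (63, 77 and 58 of 80), and in low-density embryo 1 most lie near the solid line (16 at 2-fold or more).

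If the members moved as a block, each would reach the same share of its rise in embryos 2 and 4. That share was taken as the embryo's CPM minus the low-density mean, over the mean of embryos 2 and 4 minus the low-density mean. In embryo 3 its median was 36.4%, with quartiles of 23.0 and 46.2% over the 80 members. In embryo 1 it was 24.4% (14.5 to 36.1%), in embryo 6 it was 17.7% (10.8 to 27.6%) and in embryo 5 it was 9.69% (3.32 to 16.8%). Low-density embryo 1 reached 2.45% (-0.329 to 8.22%) and high-density embryo 7 reached -2.35% (-7.55 to 2.65%). Computed the same way, the 7 low-density embryos ran from -4.67 to 2.45%, with an SD of 3.14 percentage points between them. Embryos 3, 1, 6 and 5 lay above that range and embryo 7 within it. On TMM-scaled CPM embryos 3 and 1 were closer, with median shares of 31.7 and 25.9%.

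The share varied from member to member, and how far this exceeds the usual spread between libraries was not tested. Around the median share, the predicted level lay within the 95% Poisson interval of the member's own count for 44 of 80 members in embryo 1, 34 in embryo 3 and 44 in embryo 6. It did so for 48 and 45 members in embryos 2 and 4 themselves, and for 45 to 59 in the 7 low-density embryos. High-density embryos 5 and 7 had 47 and 42. These numbers do not rank embryos by proportion, since higher counts narrow the intervals and embryos 2 and 4 themselves set the predicted level. These intervals cover counting error only and leave out the error of the base. In embryo 1, 20 members had an interval wholly above the predicted level and 16 wholly below. In embryo 3 the numbers were 22 and 24, and in embryo 6 they were 18 and 18. Shares over single members ran from -37.0 to 81.9% in embryo 1 and from -37.0 to 111.3% in embryo 3.

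**Figure D4:**
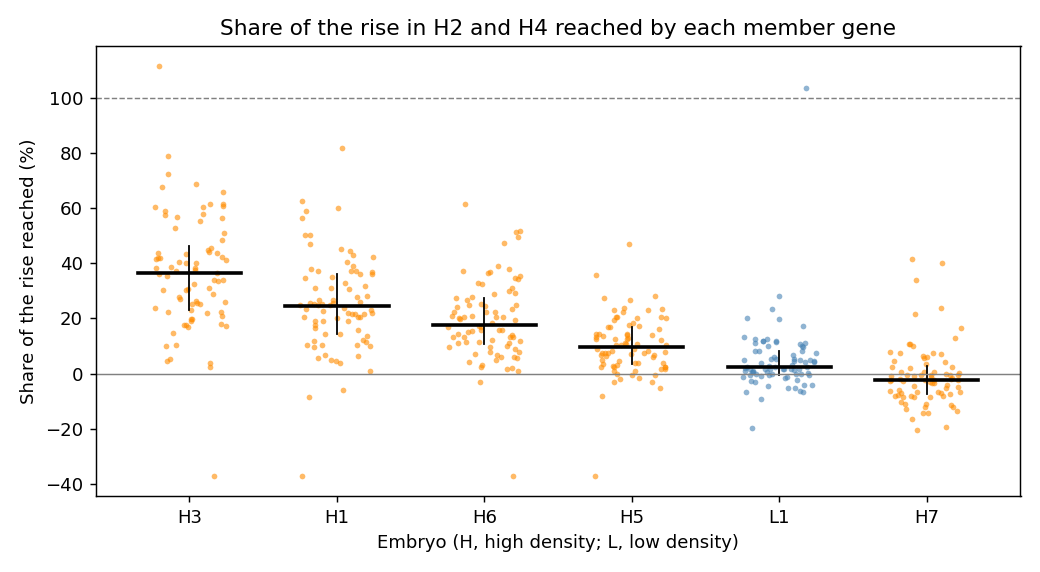
Share of the rise seen in H2 and H4 that each member reached in 6 other embryos, in percent, with 1 point per gene, a black bar at the median and a vertical line over the quartiles. The medians step down from 36.4% (H3) through 24.4% (H1), 17.7% (H6) and 9.69% (H5) to 2.45% (L1) and -2.35% (H7), each with a broad spread of genes.

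Direct ratios between these embryos need no base, and are given here beside the same ratios over all genes. Embryo 3 over embryo 1 had a median of 1.34 and quartiles of 0.863 and 1.86 over the 79 members with a count in embryo 1, against a median of 1.17 and quartiles of 0.836 and 1.70 over all genes. Embryo 1 over embryo 6 had a median of 1.25 (quartiles 0.960 and 1.64), against 0.985 (0.795 and 1.21) over all genes. Embryo 3 was higher than embryo 1 in 49 of these members, as in 62.7% of all genes with a count in embryo 1. It was at least 2-fold higher in 19 of the 79 members (16.8% of all genes) and at most 0.5 times as high in 5 (5.74%). Whether these shares differ from those of all genes was not tested. In 32 of the 80 members embryo 3 lay over embryo 1 and embryo 1 over embryo 6, against 19.8% of all genes.

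Single members show how differently genes could be shared among these embryos, and the ones described here were picked for that contrast after their values were seen. The member with the highest mean CPM of embryos 2 and 4, with 458.2 and 610.8 in them, stood at 391.0 CPM in embryo 3 but at 132.1, 138.2, 122.5 and 40.9 in high-density embryos 1, 5, 6 and 7. Its low-density values ran from 43.2 to 107.6 CPM with a median of 77.4. Embryo 3 thus stood near the pair and reached 68.6% of the rise, while embryos 1 and 6 reached 11.9 and 9.80%.

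Another member of high level had the opposite order. It stood at 502.8 and 243.9 CPM in embryos 2 and 4, at 197.1, 109.0, 28.4, 150.6 and 11.4 CPM in high-density embryos 1, 3, 5, 6 and 7, and the low-density embryos ran from 8.61 to 34.7 CPM around a median of 15.3. Embryos 1 and 6 reached 50.1 and 37.0% of its rise and embryo 3 reached 25.2%. The member with the largest ratio of embryo 2 to embryo 4 stood at 48.1 and 6.46 CPM in them, and at 4.87, 3.11, 1.29, 5.93 and 0.238 CPM in high-density embryos 1, 3, 5, 6 and 7, against 0 to 0.918 CPM at low density. Embryo 4 was there close to embryos 1 and 6 in level, and embryo 2 stood apart.

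The steadiest of the 6 members with a base of 20 CPM or more at low density ran only from 36.7 to 50.5 CPM in the 7 low-density embryos. It stood at 424.8 and 292.7 CPM in embryos 2 and 4, at 141.6, 151.8, 69.6 and 115.6 in embryos 1, 3, 5 and 6, and at 38.6 CPM in embryo 7. Embryos 1, 3, 5 and 6 all exceeded the low-density range and embryo 7 lay inside it.

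No member stayed flat in all of high-density embryos 1, 3 and 6 and low-density embryo 1, with flat taken as under 1.5 times the base in each, which 64.1% of all 11495 genes met. Under 1.5 times the base stood 7 members in embryo 1 (82.4% of all genes), 3 in embryo 3 (75.5%), 11 in embryo 6 (86.6%) and 45 in low-density embryo 1 (89.4%). At least 2-fold was reached in all of high-density embryos 1, 3 and 6 by 51 members (4.25% of all genes). It was reached in 2 of them by 17, in 1 by 11 and in none by 1, for which the shares of all genes were not computed. With low-density embryo 1 included, 11 members were at least 2-fold in all 4 embryos, where 1.56% of all genes were.

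tree_swallow122243 was the 1 member flat in high-density embryos 1, 3 and 6, and it is named because of that, after its values were seen. It stood at 7.09 and 6.31 CPM in high-density embryos 2 and 4, at 1.19 in embryo 7 and at 0 in embryos 1, 3, 5 and 6. Among the low-density embryos it stood at 6.89 CPM in embryo 1, 3.88 in embryo 3 and 1.903 in embryo 7, and at 0 in the other 4. It was thus either at 0 or above 1 CPM, in both densities, and low-density embryo 1 matched high-density embryos 2 and 4.

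The identifiers that follow were chosen by rank, as the 2 members with the highest lower fold in embryos 2 and 4 and the 2 with the highest mean CPM of embryos 2 and 4 among those raised in all 4 embryos, with 1 gene meeting both. tree_swallow016726 stood at 62.3 CPM in high-density embryo 2 and 211.1 in embryo 4. It stood at 14.8, 8.60, 0.739, 7.66 and 1.904 CPM in high-density embryos 1, 3, 5, 6 and 7, and the 7 low-density embryos ran from 0.253 to 3.01 with a median of 1.199 CPM. Embryos 1, 3 and 6 exceeded every low-density value, while embryos 5 and 7 lay among them.

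tree_swallow019728 stood at 63.6 CPM in high-density embryo 2 and 91.2 in embryo 4. Its levels were 17.8, 2.97, 1.85, 8.61 and 1.43 CPM in high-density embryos 1, 3, 5, 6 and 7, and the low-density embryos ran from 0.253 to 1.84 CPM around a median of 0.884. Embryo 3, the highest of the 12 for most members, reached 2.54% of the rise in this gene and embryo 1 reached 21.9%.

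tree_swallow008761 stood at 237.9 CPM in high-density embryo 2 and 59.7 in embryo 4. In high-density embryos 1, 3, 5 and 6 it stood at 32.0, 23.4, 12.6 and 18.4 CPM, each above all low-density embryos, which ran from 0.253 to 2.83 with a median of 1.38 CPM. In embryo 7 it was at 0, which allows up to 0.714 CPM.

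**Figure D5:**
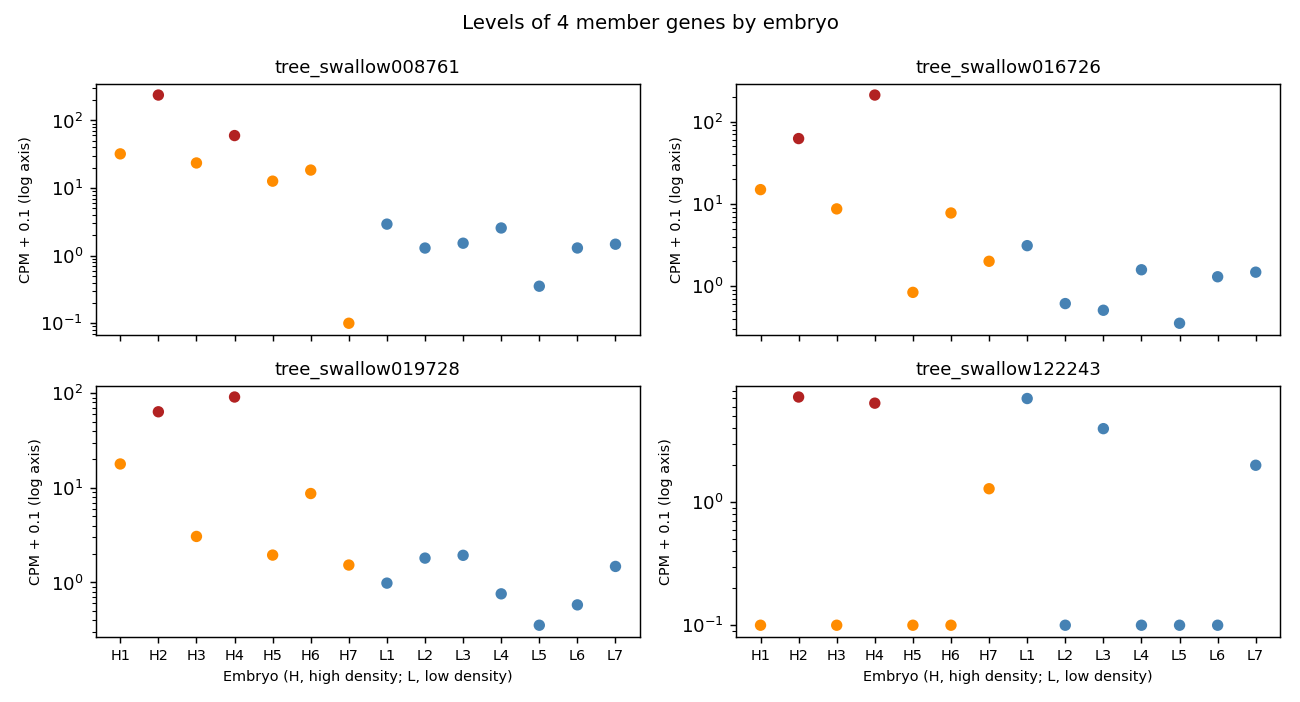
CPM + 0.1 (log axis) of 4 members in each of 14 embryos (H2 and H4 red, other high-density embryos orange, low-density embryos blue). The first 3 genes are higher in H1, H3 and H6 than in any low-density embryo, with tree_swallow019728 at 2.97 CPM in H3, and tree_swallow122243 is at 0 in H1, H3, H5 and H6 and at 6.89 CPM in L1.

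High-density embryos 5 and 7 were the lowest of their group. In embryo 5, 51 members had a 95% Poisson interval wholly above the low-density mean (40.3% of all genes) and 2 wholly below it (17.5%), and 22 members stood under 1.5 times the base (81.7% of all genes). The median base was 1.88 CPM for members and 24.5 for all genes. Higher counts narrow Poisson intervals, so these shares are not matched for level. Embryo 5 has the same code prefix as embryos 1 and 3, and embryo 1 over embryo 5 had a median of 1.67 over members, against 0.865 over all genes.

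In embryo 7, 53 members lay below the low-density mean, where 73.7% of all genes did, and 11 were at 0 (4.6%). It lay below all 7 low-density embryos in 22 members, where 42.5% of all 11495 genes did. The median log2 ratio of the members to base was -0.30 there and 0.01 on TMM-scaled CPM. The 12 members at 2-fold or more had a median base of 0.708 CPM and rested on 2 to 157 counts. Embryo 7 shares its code prefix with embryo 2.

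Whether members differed between densities outside embryos 2 and 4 was tested with edgeR's quasi-likelihood test over all genes, with 5 high-density and 7 low-density embryos. All 58 members that passed the expression filter had a positive log2 fold change, where 52.0% of the 10870 genes tested did. Their median was 1.48, from 0.53 to 3.39, with a median SE of 0.46, against a median of 0.02 over all genes. The test itself gives no SE, so the SEs given for edgeR are the absolute log2 fold change over the square root of its F statistic. At an adjusted p of 0.05, 13 members were higher at high density, where 0.902% of all genes tested were (98 genes), and 0 were lower (0.11% of all genes). At an unadjusted p under 0.05, 48 members were higher (9.53% of all genes) and 0 lower (4.71%). The 22 other members lacked the filter's minimum count in enough embryos, with low-density means of at most 1.81 CPM. The part of the base in this was not tested. A member with a base of 0.670 CPM passed, at 3.81, 3.56, 2.03 and 2.30 CPM in high-density embryos 1, 3, 5 and 6. It also stood at 2.22 CPM in low-density embryo 2. High-density values count towards passing, so these counts describe the members that passed. With no filter all 80 were tested, 79 were positive and 14 were called higher (0.628% of all genes).

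The 13 called members had log2 fold changes from 1.16 to 3.39 and edgeR adjusted p-values from 0.0298 to 0.0474. Their low-density means ran from 1.54 to 45.8 CPM, with a median of 11.1, above the median of 3.31 CPM of the 58 tested. In 8 of them high-density embryo 7 lay below the low-density mean, where 73.7% of all 11495 genes did. tree_swallow008761 had the largest change, 3.39 ± 0.68 (SE derived from the F statistic; edgeR adjusted p = 0.0410). Its mean was 17.3 ± 11.996 CPM in the 5 high-density and 1.54 ± 0.861 CPM in the 7 low-density embryos (SD), with 4 of the 5 above all 7.

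The calls were lost without single embryos while the fold changes stayed of similar size. Without high-density embryo 1, 3 or 6, or without low-density embryo 2, 3, 5 or 6, 0 members were called by edgeR, with 35 to 46 at an unadjusted p under 0.05 and a median log2 fold change of 1.23 to 1.55. In the same fits the calls over all genes were 0 or 1. At an unadjusted p under 0.05, 748 to 959 of the 10760 to 10981 genes tested were higher. Without high-density embryo 7, 35 of 61 members were called higher (337 of 11039 over all genes), and without embryo 5 it was 18 of 60 (180 of 10940). Without low-density embryo 1, 4 or 7 it was 12 of 55, 2 of 56 and 8 of 55. Over all genes, 105 of 10759, 33 of 10761 and 80 of 10864 were called higher there. DESeq2 called 24 of 58 higher (3.36% of all genes), while limma-voom and edgeR on column sums called 0. These had 41 and 48 members higher at an unadjusted p under 0.05, where 963 and 946 of all 10870 genes were. In each of these fits all tested members kept a positive log2 fold change.

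Only 2 members had all 5 of these high-density embryos above all 7 low-density embryos, where 0.6% of all 11495 genes did. In one of them the 5 ran from 18.5 to 102.7 CPM and the 7 from 2.28 to 15.5, with 207.2 and 124.6 CPM in embryos 2 and 4. In the other the 5 ran from 1.67 to 5.93 CPM and the 7 from 0.253 to 1.59, with 18.9 and 12.2 CPM in embryos 2 and 4.

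Embryos also differ in the letter prefix of their code, whose meaning the labels do not give, and SW alone among the 6 prefixes occurs at both densities. Within it, high-density embryo 6 lay above low-density embryos 5 and 6 in 76 of 80 members, where 34.2% of all genes did, and at 2-fold or more over their mean in 73 (11.0% of all genes). Low-density embryos 5 and 6 had the lowest member levels of their density, at 0.0341 and 0.0334% of counts, which widens this contrast. Over the mean of all low-density embryos, high-density embryo 6 had 58 members at 2-fold or more. With the prefix as a term in edgeR, the 58 members tested had a median log2 fold change of 2.20 with a median SE of 0.80. It rests on high-density embryo 6 and low-density embryos 5 and 6, so with 1 high-density embryo it is read as a size only. Without prefix SW, in 4 against 5 embryos, 0 of 59 members passed at an adjusted p of 0.05. At an unadjusted p under 0.05, 31 were higher, where 497 of all 10951 genes were, and the median log2 fold change of the 59 was 1.29. For the other prefixes, density and prefix cannot be told apart.

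The members also moved together from embryo to embryo. Over the 12 embryos, the median Pearson's r between 2 members was 0.66 in log2(CPM + 0.5), against 0.13 between 2 of all 11495 genes. Over the 7 low-density embryos alone it was 0.33 against 0.06. Over the 5 high-density embryos it was 0.75 against 0.29. All points of a pair share their libraries and totals, and these values describe the set with no test.

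At low density the members were lowest in embryos 5, 6 and 3. Their median log2 ratio to the mean of the other low-density embryos was -0.72, -0.65 and -0.50 there, and 0.37, 0.23, 0.20 and 0.13 in embryos 1, 2, 4 and 7. Embryos 5 and 6 carry the prefix SW, and their totals, 3950422 and 4170458, were the 2 smallest of the low-density group. By summed level low-density embryo 4, at 0.0716% of counts, stood above embryo 1, at 0.0617%, so that the highest low-density embryo depends on the measure.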

How the data were processed

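The deposited table holds estimated counts for each gene and embryo, unnormalized. Per the submitters' processing notes the tools were Salmon 1.9.0 and fastp 0.20.1; no source used here gives the transcriptome, the summing to genes or a gene filter. Columns were matched to samples by the labels' codes. Members were found on CPM from column sums of the values as deposited. The members and all comparisons were chosen with earlier results of these data known. For tests, estimated counts were rounded, genes kept with filterByExpr (minimum count 10, total 15), libraries scaled by TMM, and densities compared by a robust quasi-likelihood fit in edgeR 4.0.16 under R 4.3.3, with Benjamini-Hochberg adjustment over all genes tested. DESeq2 1.42.0 and limma 3.58.1 were alternatives. Counts were simulated for this comparison of 12 embryos, with 10731 genes passing the filter. In them edgeR found 41 of 100 genes with a true log2 change of 1 and 91 of 100 with a change of 2. Of its 139 calls there, 7 were false. The changed genes were drawn at random from all genes passing the filter, independent of one another and with 1 mean per density. The members have low levels and move together, so these numbers do not give the power or the false calls for them. The share of false calls in the embryos' own counts was not tested. Log ratios used a pseudocount of 0.5 CPM. Identifiers were named by rank, as the text states, except tree_swallow122243, which was picked after its values were seen. Since nests are not labelled, replicates may not be independent, and p-values describe only how these embryos vary.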

Additional observations from a re-analysis of the deposited data

Results flagged for a closer look

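Across 14 groups of values examined (summed and median member levels and 5 single members, in the 7 low-density and in the 5 other high-density embryos), 2 held a value far from the rest. No chance rate is set beside this, since the flag assumes normally distributed values and the members were chosen for values far apart. tree_swallow122243 stood at 1.19 CPM in high-density embryo 7 and at 0 in the other 4 of these embryos. With those 4 at 0, any count in embryo 7 would have been flagged, and this gene was picked after its values were seen. tree_swallow000278, the member with the highest mean CPM of embryos 2 and 4, stood at 391.0 CPM in high-density embryo 3, against 40.9 to 138.2 CPM in the other 4. Its mean over the 12 was 114.1 CPM, and its lower fold of 4.02 was among the last inside the threshold.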

How the results depend on the processing

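The 80 members became 48 at a mean of 5 CPM, 201 and 13 at folds of 3 and 6, 298 against the median of the 12, and 427 or 165 with embryo 2 or 4 alone. Leaving out 1 of the 12 gave 67 to 125, with 124 without high-density embryo 1 and 125 without embryo 3. The alternatives with embryo 2 or 4 alone and those that left out 1 of the 12 were chosen after seeing the data, as was flatness in only 3 embryos (1 member). Called members numbered 24 by DESeq2, 21 at an adjusted p of 0.1, and 0 by limma-voom, on column sums, with the prefix as a term or without prefix SW. Over all genes, these gave 482, 250, 0, 0, 2 and 1, against 110. Without 1 embryo, called members ran from 0 to 35 and all called genes from 0 to 392. The log2 fold change of tree_swallow008761 stayed between 2.78 and 4.65 in 21 settings and lost its call in 12. At folds of 1.5 and 3 the counts were 35 and 6 for low-density embryo 1, 58 and 15 for high-density embryo 5, and 19 and 5 for embryo 7, which had 19 on TMM-scaled CPM. At a fold of 3 embryo 6 had 34. Under 1.5 times the base stood 89.4% of all genes in low-density embryo 1 and 81.7% in high-density embryo 5. The share of all genes was not computed for these counts at a fold of 3 or for embryo 7 at 1.5. Nor was it computed for the counts on TMM-scaled CPM or without 1 low-density embryo. On TMM-scaled CPM the median shares were 31.7% in embryo 3, 25.9% in embryo 1, 18.5% in embryo 6 and 7.25% in embryo 5. Without 1 low-density embryo the base gave 63 to 67 members in embryo 1, 76 to 77 in embryo 3, 54 to 63 in embryo 6, 33 to 43 in embryo 5, 11 to 15 in embryo 7 and 17 to 25 in low-density embryo 1, with 25 without low-density embryo 2. The causes were not tested. No paired analysis was possible because replicate numbers follow accession order and pair nothing. For 22 members too few embryos reached the filter's minimum count, and the part of depth in this was not tested.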
